A study of Mus musculus with 10 samples.

Results

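The 33 genes described here are interferon-response and MHC class I genes of mouse colon organoids, chosen by name as protein-coding rows of a table of 56748 genes. They are 5 transcriptional regulators of the interferon response or of class I genes, and 18 antiviral and other interferon-stimulated genes. The rest are 9 genes of class I antigen presentation and Cd274, which encodes the checkpoint ligand PD-L1. All 33 symbols were found. The rule that picks them uses no measured value, although the list of names was drawn up with earlier results of these data known. The organoids were cultures of colon epithelium, and 3 days after a passage they received either WY-14643 at 100 µM or its vehicle for 2 days. WY-14643 is a synthetic agonist of the fatty acid-sensing nuclear receptor PPARα. Poly(A) RNA was read in 10 libraries, replicates 1 to 5 with vehicle and replicates 6 to 10 with WY-14643. The labels give no strain, genotype, animal, age or organoid line for either group, so the spread between libraries may be technical. Organoids of this kind are grown from epithelium, without the immune cells that supply much of the interferon in a colon.

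Interferons are secreted proteins that bind receptors on the cell surface. The receptors carry JAK kinases, which phosphorylate STAT proteins. Type I and type III interferons act mainly through a complex with STAT2 and IRF9 that binds the interferon-stimulated response element (ISRE), while interferon-γ acts mainly through the gamma-activated site (GAS). Many target genes block the replication of viruses. Others belong to the class I pathway: proteasomes cut proteins into peptides, the TAP transporter moves the peptides into the endoplasmic reticulum, and there they are loaded onto a class I heavy chain paired with β2-microglobulin. In the gut, epithelial cells respond strongly to type III interferon and show class I on their surface also at rest.

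The promoters of the antiviral and of the class I members differed in how often they held ISRE letters, and the windows printed next show those letters. RefSeq promoters, 250 bases before to 50 bases after a transcription start in GRCm38.p6, matched 27 of the 33 symbols. ISRE letters, here GAAA, then 2 bases of any kind, then GAAA, were searched on both strands. They were present in a promoter of 10 of 14 antiviral genes (71.4%), of 1 of 8 antigen presentation genes (12.5%) and of 1 of 4 regulators, and in none for Cd274. Of all 27025 genes with a promoter in that table, 3.99% had a match. The matching genes outside the antiviral group were B2m and Stat2. The GAS letters TTCNNNGAA, which read the same on both strands, were present for 4 of 14 antiviral genes, 1 of 8 antigen presentation genes (Psmb8) and 1 of 4 regulators (Irf1), against 9.55% of all genes. The windows below belong to the single class I gene with a match, to the most abundant antiviral genes with a match before the start, and to Isg15 and Ifit1, classical interferon targets added after their values were seen. Each reads 5′ to 3′ on the gene's strand and ends at or before the start. Capitals mark every base of an ISRE match, on either strand, and matches can overlap each other.
B2m, chr2:122147528-122147577, plus strand: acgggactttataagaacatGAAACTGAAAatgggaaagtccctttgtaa
Bst2, chr8:71537567-71537622, minus strand: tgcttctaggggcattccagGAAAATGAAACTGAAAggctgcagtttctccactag
Oas1a, chr5:120907526-120907565, minus strand: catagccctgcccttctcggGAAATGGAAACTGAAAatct
Gbp2, chr3:142620584-142620633, plus strand: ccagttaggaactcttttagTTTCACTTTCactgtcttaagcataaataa
Gbp3, chr3:142559979-142560034, plus strand: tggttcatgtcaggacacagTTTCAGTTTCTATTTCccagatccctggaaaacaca
Isg15, chr4:156200855-156200916, minus strand: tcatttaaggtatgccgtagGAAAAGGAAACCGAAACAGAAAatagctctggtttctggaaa
Ifit1, chr19:34640765-34640833, plus strand: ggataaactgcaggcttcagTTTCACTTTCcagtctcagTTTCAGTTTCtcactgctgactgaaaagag
A match is a description of letters, and binding was not measured. A gene without a match may still hold an element that departs from these exact letters or lies outside the bases searched. The counts therefore do not show that such an element is absent from the class I promoters.

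Genome positions also separate the groups. In the coordinates of the table (mm39), 7 of the 9 antigen presentation members lie on chromosome 17 in the major histocompatibility complex, from Tapbp (34134873 to 34148266) and H2-K1 (34214991 to 34219321) to H2-D1 (35481706 to 35486475). Psmb9, Tap1, Psmb8 and Tap2 are direct neighbours there, between 34400961 and 34435295. The exceptions are B2m on chromosome 2 (121978167 to 121983564) and Psmb10 on chromosome 8 (106662367 to 106665076). The 18 antiviral members are spread over 10 chromosomes, with Ifit1, Ifit2, Ifit3 and Ifit1bl1 together on chromosome 19 (34528094 to 34627409). Of the 33 members, 17 overlap the span of another gene. In 4 of them that gene had a mean of at least 1 FPKM: Irf7 with Phrf1, Irf9 with Rnf31, Tapbp with Zbtb22, and Psmb9 with Tap1. Rnf31 and Zbtb22 lie on the same strand as the member they overlap, and for the other two the strand setting of the counting is not given, so reads from the shared stretches may have been assigned to either gene. H2-K1 and H2-D1, Oas1a, the Ifit genes and the Gbp genes also have close relatives with which reads may be shared.

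Levels are in FPKM, a count of fragments per unit of gene length and of a scale for each library, as the authors deposited them. The median ratio to the geometric gene means was 1.00863 in each library, so the values were already scaled to equal median ratios. Each level is given as mean ± SD over 5 libraries unless single libraries are listed. Between 15618244 and 29271304 gene-assigned reads stood behind a library. Genes with a mean of at least 0.5 FPKM over all 10 libraries were tested, 13607 in all, and 23 of the 33 members were among them. Log2 fold changes are differences of log2(FPKM + 1), WY-14643 minus vehicle, which are small for genes of low level by construction. The libraries carried the RNA of epithelium: the 8 epithelial markers summed to 4181 to 7062 FPKM with vehicle and 3908 to 7510 FPKM with WY-14643, with Epcam at 425 and 412 FPKM. Of 12 leukocyte markers 6 had no read in any library, among them Cd3e, Lyz2 and Adgre1, and Ptprc, the gene of CD45, averaged 0.00855 and 0.00521 FPKM. Their sum was 3.19 to 5.90 FPKM with vehicle and 3.18 to 6.72 FPKM with WY-14643, most of it Cd68 (3.93 ± 1.25 and 3.56 ± 1.66 FPKM). Fibroblast markers summed to at most 0.556 FPKM and endothelial markers to at most 0.777 FPKM in any library.

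In vehicle, the class I heavy chains and B2m stood high and most antiviral genes stood near 0. The median vehicle mean was 6.54 FPKM over the 9 antigen presentation members, with a range from 0.103 to 193 FPKM, and 0.429 FPKM over the 18 antiviral members, with a range from 0.0178 to 12.2 FPKM. The median over all genes tested was 6.58 FPKM. Of the antigen presentation members 4 stood at 10 FPKM or more and 2 below 1 FPKM, whereas of the antiviral members 1 stood at 10 or more and 11 below 1 FPKM. Of all 13607 genes tested 5222 stood at 10 FPKM or more and 1574 below 1 FPKM. The genes tested had passed the minimum mean of 0.5 FPKM. The member counts and medians include 8 antiviral members and 1 antigen presentation member below that minimum, so they are not directly comparable with those of the genes tested. These levels are per deposited gene length. A comparison between genes depends on that length and on how shared reads were counted, which is not given.

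**Figure D1:**
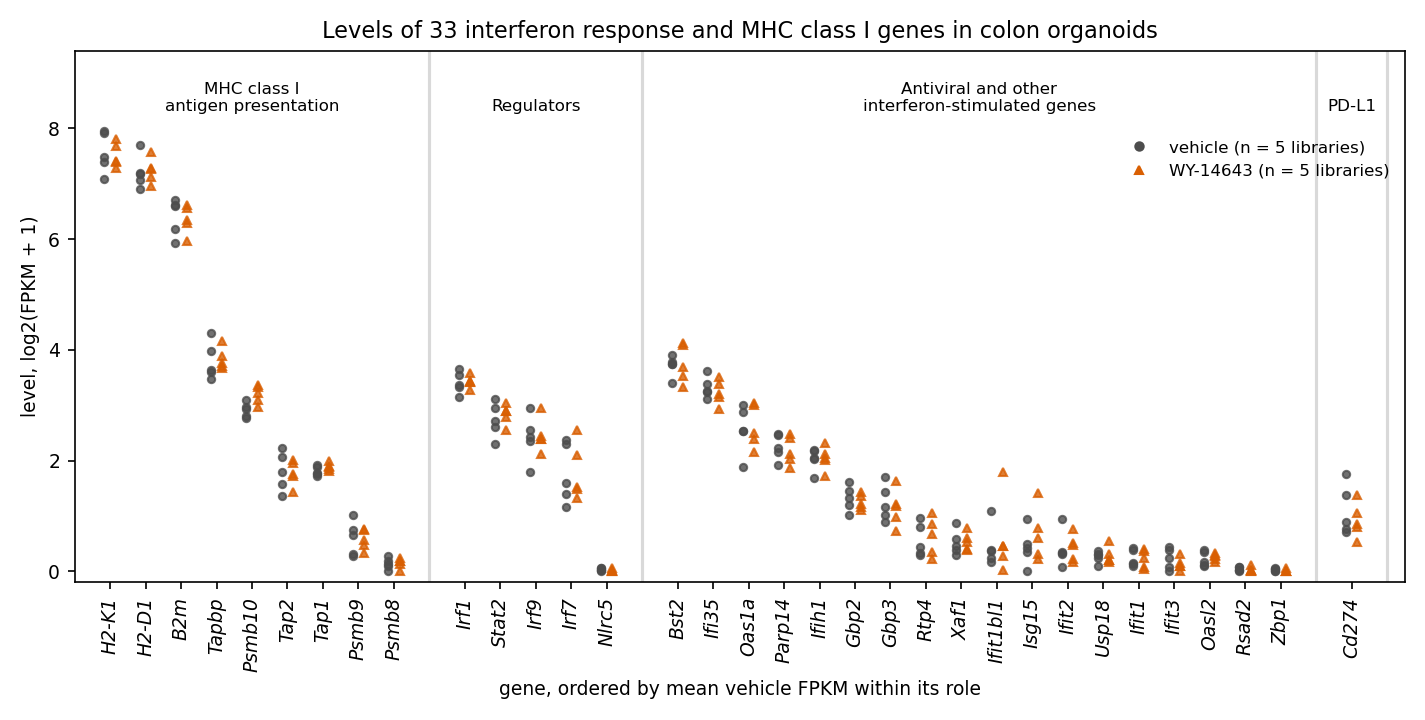
Level of each of the 33 genes on the log2(FPKM + 1) scale in every library, ordered by vehicle mean within each role. Grey circles are the 5 vehicle libraries and orange triangles the 5 WY-14643 libraries. H2-K1, H2-D1 and B2m stood far above the other members, Nlrc5, Rsad2 and Zbp1 were near 0, and the groups overlapped for every gene.

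WY-14643 did not change any of the 23 tested members at an adjusted p under 0.05 (limma over all genes tested, adjusted p = 1.0 for each). Of all 13607 genes tested 0 passed (0%). At an unadjusted p under 0.05, 1 member stood out, Psmb10, against 205 genes in all (1.51%). Of the 23 members 14 had a higher mean (60.9%, against 47.1% of all genes tested) and 9 a lower one. Among them 2, Isg15 and Ifit1bl1, reached the filter only through WY-14643, and 1, Psmb9, only through vehicle. The median log2 fold change of the members was 0.03 against −0.0061 over all genes tested, and 19 members differed by less than 0.1 in either direction. No member had groups that did not overlap, as 48 genes did (0.353%). In all 23 the range over the vehicle libraries alone was wider than the difference between the groups. A range of single libraries is easily wider than a difference of means, and the share over all genes tested was not computed. That count therefore says little about these members. The 95% interval of the log2 fold change lay within 2-fold for all 23 and within 1.5-fold for 19 on the log2(FPKM + 1) scale, which says little for members of low level such as Isg15.

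The libraries of the groups go together in pairs, vehicle replicate 1 with WY-14643 replicate 6 and so on to 5 with 10, called pairs 1 to 5. The numbers in the labels are not shared, and the pairing was read from the data (correlation of deviations from the group means 0.423 to 0.782 for matched libraries). A fit with the pair as a block called 43 of all genes (0.316%) and 0 of the 23 members, whose adjusted p ranged from 0.0762 to 0.967. At an unadjusted p under 0.05 it held 1438 genes (10.6%) and 1 member, again Psmb10. Of the members 2 were higher in 5 of 5 pairs, Psmb10 and Tap1, against 5.63% of all genes, and 0 were lower in 5 of 5, against 6.09%. Within the pairs the interval lay inside 1.5-fold for 22 of the 23, all but Isg15.

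**Figure D2:**
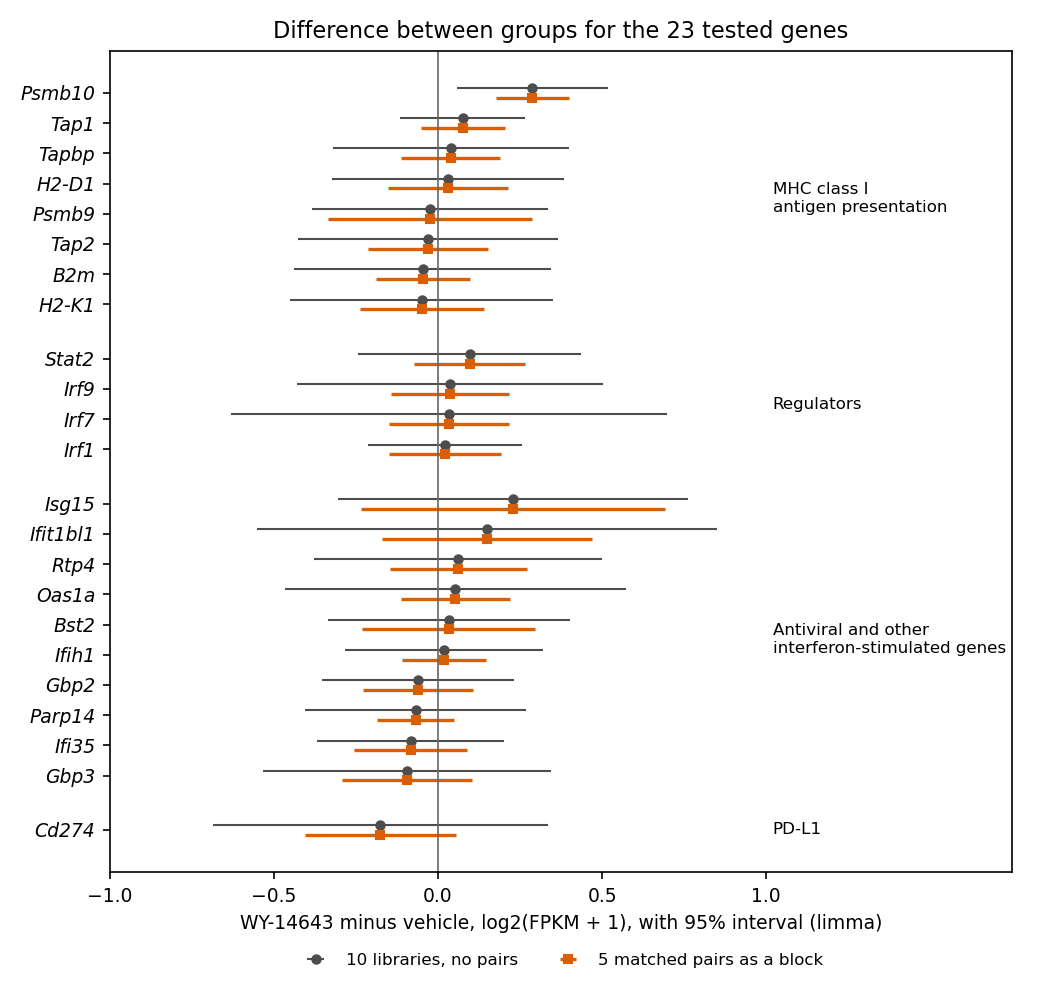
Difference between WY-14643 and vehicle for the 23 tested members in log2(FPKM + 1), with 95% intervals from limma over 10 libraries (grey circles) and with the 5 matched pairs as a block (orange squares). The intervals of Psmb10 alone lie above 0 in both fits, and its adjusted p did not pass in either.

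The signal that starts the pathway was not detectable. Of 21 genes of type I, II and III interferons, 17 had no read in any of the 10 libraries, and 13 reads in all were assigned to the other 4 (Ifnk 8, Ifnab 3, Ifna13 1 and Ifnz 1) out of 192905019. Ifnb1, the interferon that most cells make first on sensing a virus, Ifng, made mainly by lymphocytes, and the type III genes Ifnl2 and Ifnl3 were at 0 throughout. A count of 0 allows up to 3 reads, which is 0.138 to 0.254 FPKM for Ifnb1, 0.0798 to 0.147 FPKM for Ifng and 0.178 to 0.327 FPKM for Ifnl3, depending on the library; these limits cover counting error only.

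Receptors and kinases were present. Ifngr1, the ligand-binding chain of the interferon-γ receptor, averaged 84.3 ± 27.8 FPKM with vehicle and 77.3 ± 26.0 FPKM with WY-14643. Ifnlr1, the specific chain of the type III receptor, was at 7.19 ± 0.785 and 6.99 ± 1.077 FPKM. Ifnar1 of the type I receptor was at 10.1 ± 1.28 and 9.82 ± 1.27 FPKM, and Ifnar2, its partner, at 2.59 ± 0.228 and 2.38 ± 0.271 FPKM. The kinases Jak1 and Jak2 were at 20.4 and 29.3 FPKM in vehicle. Of the 10 genes on the list of receptors and their signalling, all tested, 3 had a higher and 7 a lower mean (median log2 fold change −0.02) and 0 passed in either fit. Ifngr2, the second chain of the interferon-γ receptor, was higher in 5 of 5 pairs (27.4 ± 4.05 and 30.7 ± 4.06 FPKM, adjusted p = 0.291 with the pair as a block).

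Among the regulators, Irf1, a transcription factor induced by interferon-γ, was the most abundant. Its level was 9.04, 11.6, 10.6, 9.24 and 7.86 FPKM in vehicle replicates 1 to 5 and 9.70, 9.86, 9.67, 10.95 and 8.65 FPKM with WY-14643 replicates 6 to 10. The WY-14643 libraries lay within the range of the vehicle libraries, and the log2 fold change was 0.02. Stat2, a subunit of the ISRE-binding complex, was at 3.93, 7.69, 5.05, 6.72 and 5.56 FPKM with vehicle and 4.88, 7.19, 6.43, 6.40 and 5.93 FPKM with WY-14643. Its lowest library in each group belongs to pair 1 and its highest to pair 2, and the log2 fold change of 0.10 had a 95% interval from −0.24 to 0.44.

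Irf9, the DNA-binding subunit of that complex, was at 2.48, 4.87, 4.40, 6.75 and 4.08 FPKM with vehicle and 3.32, 4.20, 4.21, 6.70 and 4.46 FPKM with WY-14643. Pair 4 was highest and pair 1 lowest in both groups. Irf7, which amplifies type I interferon production, was at 1.24, 3.89, 2.01, 4.18 and 1.63 FPKM with vehicle and 1.501, 3.30, 1.79, 4.85 and 1.86 FPKM with WY-14643. The libraries of pairs 2 and 4 stood above all others in both groups, while the group means were 2.59 ± 1.35 and 2.66 ± 1.41 FPKM. The 95% interval of the Irf7 log2 fold change ran from −0.63 to 0.70 without pairs and from −0.15 to 0.22 within them. Nlrc5, the transactivator of class I genes, was close to absent, with 18 reads over the 5 vehicle and 11 reads over the 5 WY-14643 libraries (means 0.0206 and 0.0147 FPKM). The 4 tested regulators all had a slightly higher mean with WY-14643 (median log2 fold change 0.03), and 2 of them, Irf1 and Irf9, a lower one when libraries were weighted by quality. Leaving out a library or a pair moved this median between −0.06 and 0.16, and without vehicle replicate 1 Stat2, Irf7 and Irf9 had the lower mean with WY-14643.

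Of the 18 antiviral members 10 were tested, 6 with a higher and 4 with a lower mean (median log2 fold change 0.03, range −0.09 to 0.23). With a minimum of 1 FPKM, which removes Isg15, Ifit1bl1 and Rtp4, the median was −0.06. Bst2, which encodes tetherin, a membrane protein that holds budding virus on the cell, was the most abundant. It was at 12.4, 12.8, 14.02, 12.4 and 9.502 FPKM with vehicle and 8.998, 11.9, 15.9, 16.5 and 10.5 FPKM with WY-14643. The WY-14643 libraries were the more spread, with the highest and the lowest value of all 10, and the means were 12.2 ± 1.66 and 12.8 ± 3.32 FPKM. Ifi35, an interferon-induced leucine zipper protein, was at 8.46, 8.49, 7.66, 9.37 and 11.2 FPKM with vehicle and 6.6015, 8.246, 7.81, 10.4 and 9.48 FPKM with WY-14643, lower in 3 of the pairs and with a log2 fold change of −0.08, which was −0.01 without vehicle replicate 5 or WY-14643 replicate 6.

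Oas1a makes the oligoadenylates that activate RNase L. Its level was 2.67, 6.98, 4.803, 4.78 and 6.31 FPKM with vehicle and 3.48, 7.18, 4.23, 4.62 and 6.99 FPKM with WY-14643. Pairs 2 and 5 were highest and pair 1 lowest in both groups. Parp14, an ADP-ribosyltransferase, was at 4.53, 3.68, 3.44, 4.57 and 2.80 FPKM with vehicle and 4.60, 3.36, 3.07, 4.32 and 2.63 FPKM with WY-14643, with the lowest library of each group in pair 5. Gbp3, a guanylate-binding GTPase, was at 1.0199, 1.24, 0.842, 1.71 and 2.24 FPKM with vehicle and 0.656, 1.28, 0.973, 1.31 and 2.08 FPKM with WY-14643, again with pair 5 highest. Ifih1, the RNA sensor MDA5, averaged 3.09 ± 0.535 and 3.15 ± 0.612 FPKM, Gbp2 1.52 ± 0.408 and 1.40 ± 0.224 FPKM, and Rtp4 0.507 ± 0.324 and 0.582 ± 0.380 FPKM.

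Isg15, a ubiquitin-like protein that is among the most strongly induced interferon targets in most cells, rested on few reads. It was at 0.914, 0.343, 0.405, 0.271 and 0 FPKM with vehicle and 0.717, 0.509, 0.171, 1.68 and 0.246 FPKM with WY-14643, from 0 to 21 reads each. Its log2 fold change of 0.23 was the largest of the antiviral members and had a 95% interval from −0.31 to 0.76. This value depended on the scale and on single libraries: it was 0.95 with voom, 0.66 with a pseudocount of 0.1, 0.01 with library weights and 0.12 without vehicle replicate 5. Ifit1bl1, a relative of the RNA-binding Ifit1, was at 1.14, 0.183, 0.294, 0.309 and 0.124 FPKM with vehicle and 2.48, 0.211, 0.371, 0.373 and 0.0191 FPKM with WY-14643. Pair 1 alone stood high, in both groups. Isg15 and Ifit1bl1 reached the filter only through the mean of their WY-14643 libraries.

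The other 8 antiviral members were below the filter. Ifit2 averaged 0.346 and 0.366 FPKM and Xaf1 0.448 and 0.461 FPKM with vehicle and WY-14643. Usp18, the protease that removes ISG15, averaged 0.197 and 0.229 FPKM, and Oasl2 0.167 and 0.196 FPKM. Vehicle libraries were deeper, with a mean of 20767440 against 17813560 reads, so read totals of the groups are not directly comparable. Ifit1, one of the promoters printed above, had 53 and 40 reads over the 5 libraries of each group (means 0.182 and 0.172 FPKM). Ifit3 had 34 and 15 reads (means 0.178 and 0.0972 FPKM). Rsad2, which encodes viperin, had 12 and 8 reads, and Zbp1, a sensor of Z-form nucleic acids, 6 and 2. A difference between the groups was not detectable at this depth.

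A wider list of 42 interferon-stimulated genes outside the 33 also ranged widely in level: 23 stood below 1 FPKM with vehicle and 9 at 10 FPKM or more. Of the 24 tested 13 had a higher and 11 a lower mean (median log2 fold change 0.01) and 0 passed in either fit. Lgals3bp, a secreted glycoprotein, was the most abundant (88.2 ± 13.6 and 95.01 ± 13.6 FPKM), followed by Ifi27 (40.0 ± 18.4 and 40.0 ± 18.9 FPKM) and the ubiquitin ligase Trim25 (30.2 ± 4.71 and 33.4 ± 4.85 FPKM). Mx1, a textbook interferon target, was at 0.896 ± 0.278 and 0.734 ± 0.150 FPKM. Sensors of viral nucleic acid were abundant in part, as Aim2 (36.6 ± 2.44 and 34.7 ± 1.98 FPKM), Irf3 (18.0 ± 3.501 and 18.3 ± 2.27 FPKM) and Eif2ak2 (15.8 ± 1.63 and 15.4 ± 0.312 FPKM). Sting1, the adaptor of cytosolic DNA sensing, was low and had the largest difference of the list (0.899 ± 0.335 and 0.536 ± 0.0787 FPKM, adjusted p = 0.423 with the pair as a block). Of 10 tested sensors 5 had a higher and 5 a lower mean, and of 6 tested feedback inhibitors, such as Socs1 (0.440 ± 0.113 and 0.573 ± 0.245 FPKM) and Ptpn2 (13.2 ± 2.16 and 11.8 ± 2.01 FPKM), 2 higher and 4 lower. None of these passed in either fit.

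Class I antigen presentation was led by the heavy chains. H2-K1 was at 134, 239.8, 177, 247 and 167 FPKM with vehicle and 166, 204, 169, 223 and 154 FPKM with WY-14643. Pairs 2 and 4 were highest in both groups, and in vehicle H2-K1 stood above 98.9% of all genes tested. H2-D1, the other classical heavy chain, was at 119, 145, 143, 206 and 133 FPKM with vehicle and 152, 138, 154, 189 and 124 FPKM with WY-14643, with pair 4 highest. B2m, the light chain of every class I molecule, was at 96.0, 103, 96.8, 71.2 and 59.6 FPKM with vehicle and 93.2, 96.9, 80.3, 77.3 and 61.4 FPKM with WY-14643. For B2m pair 5 was lowest in both groups, while for the heavy chains pair 1 was lowest in vehicle and pair 5 with WY-14643. The log2 fold changes were −0.05 for H2-K1, 0.03 for H2-D1 and −0.05 for B2m.

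The genes that load peptides stood far below the heavy chains. Tapbp, or tapasin, which holds class I at the transporter, was at 10.2, 14.8, 11.1, 11.5 and 18.7 FPKM with vehicle and 12.01, 13.8, 12.5, 11.8 and 16.9 FPKM with WY-14643. Pair 5 was highest, and the means were 13.2 ± 3.51 and 13.4 ± 2.12 FPKM. Tap1, a subunit of the peptide transporter, was at 2.28, 2.38, 2.44, 2.78 and 2.69 FPKM with vehicle and 2.51, 2.73, 2.60, 2.96 and 2.70 FPKM with WY-14643. It was higher with WY-14643 in 5 of 5 pairs by 0.10, 0.14, 0.06, 0.07 and 0.0024 on the log2 scale, and did not pass (adjusted p = 0.689 with the pair as a block). Tap2, the partner of Tap1, averaged 2.59 ± 0.866 and 2.46 ± 0.522 FPKM.

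The inducible proteasome subunits, which change the peptides that class I presents, stood apart from each other. Psmb8 and Psmb9, the subunits in the histocompatibility complex beside Tap1, were near 0. Psmb8 averaged 0.103 ± 0.0768 FPKM with vehicle and 0.109 ± 0.0678 FPKM with WY-14643, from 34 and 31 reads in all, and was below the filter. Psmb9 averaged 0.543 ± 0.333 and 0.499 ± 0.183 FPKM and reached the filter only through its vehicle libraries. The constitutive subunits they replace were abundant, Psmb5 at 85.2 ± 13.3 and 84.3 ± 10.7 FPKM and Psmb6 at 40.4 ± 5.22 and 42.1 ± 6.56 FPKM.

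Psmb10, the third inducible subunit, was the tested member with the smallest p. Its level was 6.61, 6.83, 7.53, 5.95 and 5.77 FPKM with vehicle and 9.09, 8.28, 9.36, 7.58 and 6.79 FPKM with WY-14643. Of the treated libraries 4 stood above every vehicle library, replicate 9 by little, and replicate 10 lay within the vehicle range. The means were 6.54 ± 0.709 and 8.22 ± 1.06 FPKM, and the log2 fold change was 0.29 with a standard error of 0.10 and a 95% interval from 0.06 to 0.52. In limma the unadjusted p was 0.0191 and the adjusted p = 1.0 over all genes. It was higher in 5 of 5 pairs, by 0.41, 0.25, 0.28, 0.30 and 0.20 on the log2 scale, and with the pair as a block the interval was 0.18 to 0.40 and the adjusted p = 0.0762. Psmb10 therefore did not pass in either fit. Without WY-14643 replicate 8 the unadjusted p of the fit without pairs was 0.0530 (limma).

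Each inducible subunit was also set against the constitutive one whose place it takes, as a share of their summed FPKM. Psmb8 made up 0.128 ± 0.0997% and 0.136 ± 0.0852% of Psmb8 and Psmb5, and Psmb9 1.35 ± 0.921% and 1.22 ± 0.583% of Psmb9 and Psmb6. Psmb10 made up 15.7, 21.1, 22.7, 25.7 and 18.4% of Psmb10 and Psmb7 in vehicle and 25.8, 24.1, 27.0, 27.9 and 21.3% in WY-14643 libraries. The share of Psmb10 was higher in 5 of 5 pairs and the groups overlapped, with means of 20.7 ± 3.86% and 25.2 ± 2.61%. In exact two-sided permutation tests over the libraries, which ignored the pairs, p was 0.897, 0.810 and 0.0635 for the 3 shares. After Benjamini-Hochberg adjustment over the 3, the permutation p was 0.897, 0.897 and 0.190. The smallest p that 5 against 5 libraries can give is 0.00794. This adjustment covers the 3 shares only, although the members were listed with earlier results of these data known.

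**Figure D3:**
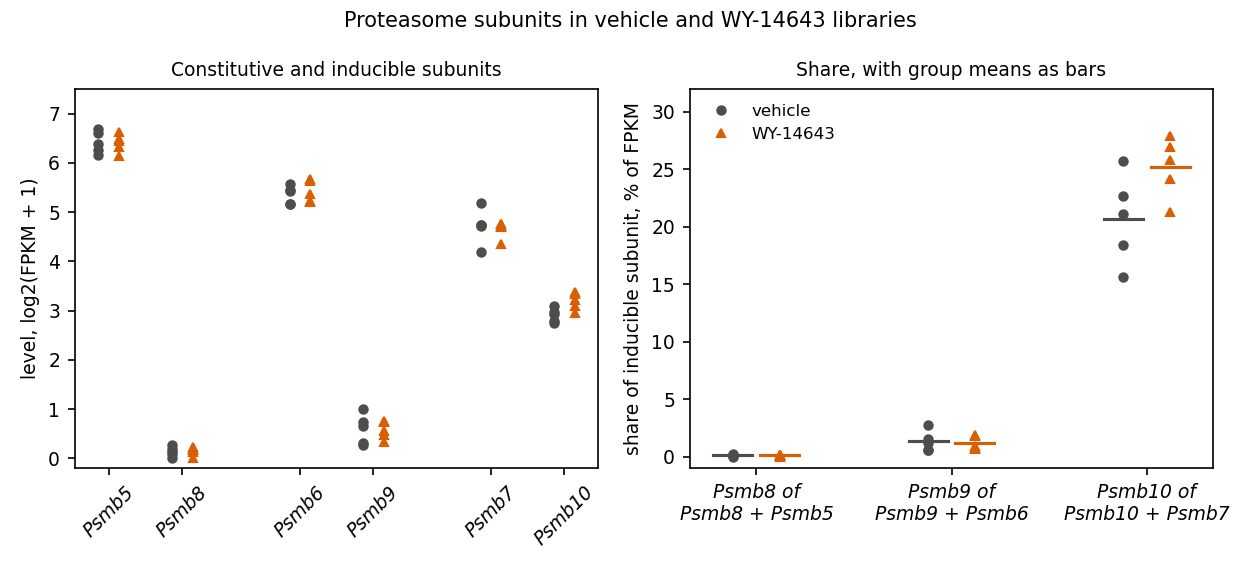
Left, levels of the 3 constitutive proteasome subunits and the 3 inducible ones that replace them, in log2(FPKM + 1), in 5 vehicle (grey circles) and 5 WY-14643 libraries (orange triangles). Right, each inducible subunit as a percentage of its pair's summed FPKM, with bars at the group means; only the share of Psmb10 was above a few percent, with means of 20.7% in vehicle and 25.2% in WY-14643.

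Other genes of the class I pathway ranged from near 0 to the level of the heavy chains, and none passed in either fit. Of the 19 found 5 stood at 10 FPKM or more and 8 below 1 FPKM in vehicle. The chaperones Calr (193 ± 39.6 and 186 ± 46.2 FPKM), Pdia3 (167 ± 35.5 and 151 ± 31.0 FPKM) and Canx (119 ± 17.2 and 116 ± 14.1 FPKM), which fold the heavy chains, were at the level of the heavy chains themselves. Pdia3 was lower in 5 of 5 pairs (adjusted p = 0.317 with the pair as a block). H2-T23, a nonclassical class I gene, averaged 31.4 ± 6.31 and 32.6 ± 5.396 FPKM. H2-Q2 stood at 42.8 and 44.2 FPKM in pair 2 and at 7.07 to 17.9 FPKM in the other 8 libraries. Of the 12 tested genes of this list 7 had a higher and 5 a lower mean (median log2 fold change 0.02). Class II genes, which present to helper T cells, were near 0: Ciita, their master regulator, averaged 0.00935 and 0.00863 FPKM, Cd74 0.178 and 0.184 FPKM, and 4 of 10 had no read in any library.

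Cd274 encodes PD-L1, an interferon-inducible ligand that restrains T cells. Its level was 0.694, 1.61, 0.851, 2.36 and 0.631 FPKM with vehicle and 0.435, 1.07, 0.745, 1.61 and 0.799 FPKM with WY-14643. As for Irf7, pairs 2 and 4 stood above all others in both groups. The mean was 1.23 ± 0.745 FPKM with vehicle and 0.932 ± 0.442 FPKM with WY-14643, lower in 4 of 5 pairs, and the log2 fold change of −0.18 had a 95% interval from −0.69 to 0.33, or from −0.41 to 0.05 within pairs (adjusted p = 0.575). It was −0.01 without vehicle replicate 4, −0.10 without vehicle replicate 2, −0.08 without WY-14643 replicate 6 and −0.32 with voom.

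Antigen presentation and antiviral genes had median differences near that of all genes. The median log2 fold change was 0.0034 over the 8 tested antigen presentation members, 4 higher and 4 lower, and 0.03 over the 10 tested antiviral members, a difference of −0.02. The antiviral median includes Isg15 and Ifit1bl1, which reached the filter only through WY-14643 and had the highest values of the group; with a minimum of 1 FPKM the difference was 0.09. Within pairs 1 to 5 the difference of the medians was 0.20, −0.12, 0.0083, 0.04 and 0.06. It changed sign between pairs, and no test was made on it because the lists were chosen with results known.

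The pairs were read from these same data, so a shared pair of the highest libraries is partly built in. In 16 of the 23 tested members the highest vehicle and the highest WY-14643 library belonged to the same pair, a share near the 58.3% of all genes tested. Pairs 2 and 4 were high for Irf7, Cd274 and H2-K1, pairs 2 and 5 for Oas1a, and pair 1 for Ifit1bl1, so the members did not share a single order of the pairs.

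**Figure D4:**
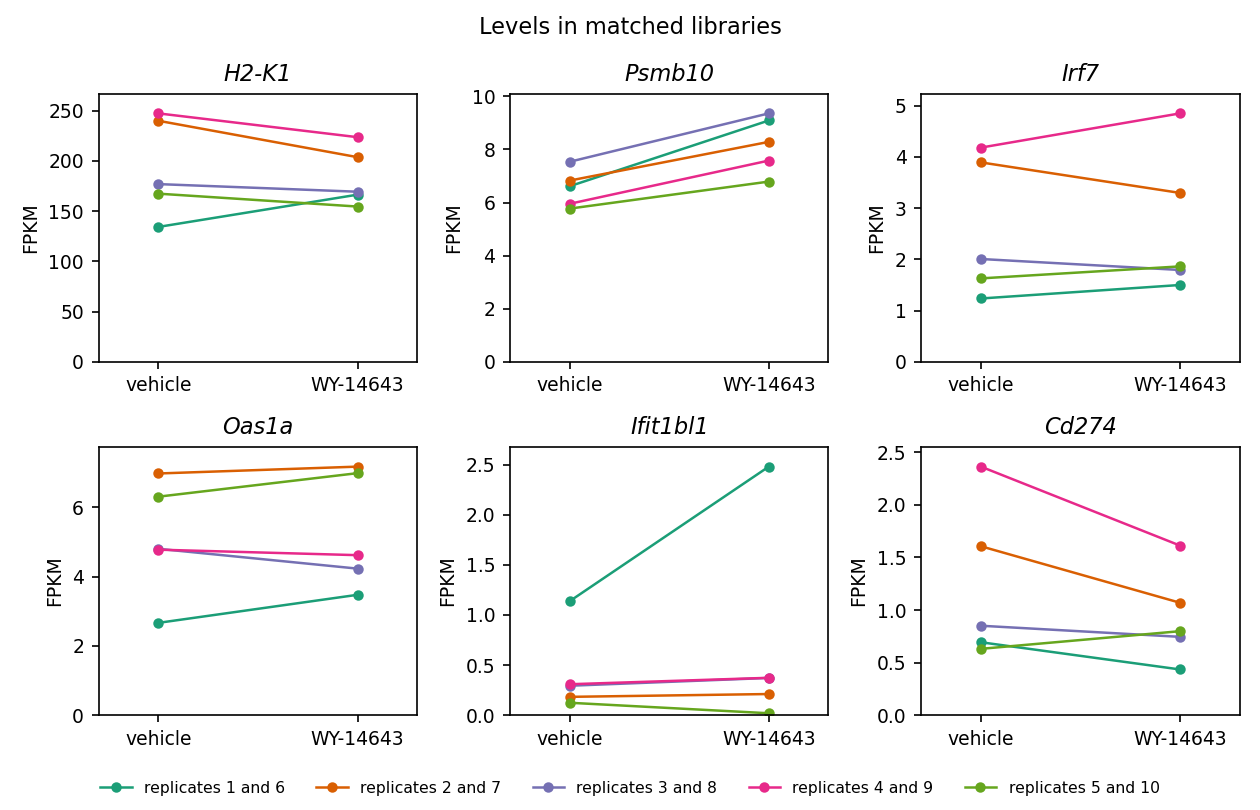
FPKM of 6 members in vehicle and WY-14643, with a line for each of the 5 matched pairs of libraries and axes that start at 0. The lines of H2-K1, Irf7, Oas1a and Cd274 lie apart from each other more than they slope, Ifit1bl1 is high in pair 1 alone, and all 5 lines of Psmb10 slope upward, from means of 6.54 to 8.22 FPKM.

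Markers of epithelial maturation also varied between libraries. Markers of absorptive colonocytes summed to 29.7 to 976 FPKM with vehicle and 52.1 to 1814 FPKM with WY-14643, with 5 of 5 tested markers higher in mean (median log2 fold change 0.39). Goblet markers summed to 34.9 to 73.9 and 18.8 to 76.5 FPKM, with 5 of 6 tested markers lower in mean (median −0.28), and none passed in either fit. Fewer cells of a type and less RNA per cell cannot be told apart in bulk libraries. The part of these differences in the levels of the interferon and class I genes was not tested.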

How the data were processed

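The authors deposited FPKM and gene lengths in bases for 56748 genes, one column per library; the submitters' processing notes name featureCounts 1.5.0-p3, HISAT2 2.0.5 and the build mm39. Not given in the sources used here are the annotation release, the strand setting and how multiply mapped reads were counted. FPKM times the deposited gene length was divided by the smallest positive product of its library, which was taken as 1 read. The result was a whole number in 100% of positive values (tolerance 0.01), and all read counts given here rest on it.

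Groups came from the treatment labels. limma 3.58.1 (R 4.3.3) compared log2(FPKM + 1), eBayes with trend and robust priors, no covariate, two-sided, over 13607 genes with a mean of at least 0.5 FPKM, with Benjamini-Hochberg adjustment and a threshold of 0.05. A second fit had matched pairs as a block: deviations from the group means correlated by 0.423 to 0.782 in matched and at most 0.0602 in unmatched libraries, and no label gives the pairs. The fits were also run on simulated reads with known changes and a fixed spread that was not estimated from these data. No result given here rests on that run. The changes were put only into genes above a minimum of reads, so members of low level are not covered. Voom on the recovered reads, with trimmed mean of M values scaling, was 1 of 22 alternatives. Each role's 4 most abundant members and 4 with the smallest p are given by library. Members, lists and the pairing were chosen with earlier results of these data known. The symbols Rigi and Tmem173 were not found (Ddx58 and Sting1 were), and H2-K2 is no protein-coding row. Promoters came from a RefSeq table of GRCm38.p6, 27 of 33 symbols matched, and were not set against mm39 coordinates. Figures were drawn with matplotlib 3.10.9. Some genes of the lists are not reported here.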

Additional observations from a re-analysis of the deposited data

Results flagged for a closer look

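Ifit1bl1 stood out in 1 library of each group. Vehicle replicate 1 was at 1.14 FPKM, while the other 4 vehicle libraries were between 0.124 and 0.309 FPKM. WY-14643 replicate 6 was at 2.48 FPKM, while the other 4 were between 0.0191 and 0.373 FPKM. Both gaps exceeded Dixon's 95% critical value, and the 2 libraries form the first matched pair. Of 46 groups of 5 libraries examined, these 2 passed; chance alone marks about 1 in 20.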

How the results depend on the processing

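In 22 alternatives 0 of the members tested passed. The alternative with median ratio scaling divided every library by the same factor, 1.00863. It could therefore differ little from the fit without pairs and is no separate check. Over all genes, those called higher and lower numbered 18 and 3 with library weights and 39 and 4 with the replicate block, against 0 and 0 in the fit without pairs. Leaving out a library or a matched pair gave 0 to 30 higher and 0 to 6 lower; without a single library at most 2 were called. The antiviral median log2 fold change of 0.03 became −0.0612 with a minimum of 1 FPKM, which drops the low members, and −0.0194 with voom (the cause was not tested); leaving out libraries or pairs gave −0.0838 to 0.0549. Of 489 values of members under the alternatives 62 had the opposite sign, in 18 members, 56 of them where a library or pair was left out. The other 6 were Irf1 (−0.0574), Irf9 (−0.0040), Oas1a (−0.0299) and Gbp3 (0.0299) with library weights, Ifit1bl1 (−0.1201) with voom and Psmb9 (0.0060) with a pseudocount of 0.1. Leaving out libraries or pairs gave −0.0122 to 0.1919 for Stat2, −0.0431 to 0.0827 for Irf1, −0.1554 to 0.1858 for Irf7, −0.1183 to 0.17 for Irf9, −0.1195 to 0.1653 for Oas1a, −0.0625 to 0.1452 for Bst2, −0.0665 to 0.0998 for Ifih1, −0.1488 to 0.0127 for Parp14, −0.0075 to 0.1653 for Rtp4, −0.1382 to 0.0138 for Gbp2 and −0.2138 to 0.0197 for Gbp3. For class I genes it gave −0.1671 to 0.0508 for B2m, −0.1425 to 0.0742 for Tap2, −0.0424 to 0.1645 for Tapbp, −0.1514 to 0.0364 for Psmb9, −0.1708 to 0.0481 for H2-K1 and −0.0515 to 0.1531 for H2-D1. Without a sign change it gave −0.2922 to −0.0128 for Cd274, −0.1511 to −0.0057 for Ifi35 and, where it was tested, 0.1182 to 0.3509 for Isg15. The regulator median ranged from −0.0646 to 0.1597. Psmb10 kept its direction in all 22, with an adjusted p of at least 0.0762. Depth limits the 10 members below the filter, several of which rest on fewer than 60 reads per group.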
